A study of Rattus norvegicus with 15 samples.

Results

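Alcohol dehydrogenases (Adh), aldehyde dehydrogenases (Aldh) and aldo-keto reductases (Akr) are the enzymes that interconvert alcohols, aldehydes and ketones with carboxylic acids or with each other. The genes described here are those whose name in the array files starts with Adh, Aldh or Akr followed by a digit, each represented by its brightest probe. This rule found 43 genes, with 46 probes, among 17337 named genes on the array. No measured value entered the rule except that brightness chose between probes of the same gene.

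The study asked which transcripts change in the Roux limb (RL), the intestinal segment that carries food from the stomach pouch after Roux-en-Y gastric bypass (RYGB), when surgery relieves diabetes in nonobese rats. RNA of 15 male rats, 5 in each of 3 groups and 1 array per rat, was measured on Agilent arrays of the rat genome, whose probes have 60 bases. Goto-Kakizaki (GK) rats descend from Wistar rats and develop type 2 diabetes without obesity. GK-S-30 rats, called bypass rats below, underwent RYGB with an RL of 30 cm at 16 wk of age, and RL tissue was taken 14 wk later, at 30 wk of age. GK-Sham-PF rats, called sham rats below, were GK rats that were sham-operated, with a cut and rejoined intestine, at the same age and pair-fed with the operated rats. Their corresponding intestinal segment was taken at the same time after surgery. Wistar rats, which are not diabetic, had no operation, were matched in age and gave the corresponding segment. Sham and Wistar rats thus differ in strain, diabetes, operation and feeding at once, and these cannot be told apart. In bypass rats the surgery and the new position of the segment go together in the same way.

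In background terms, these enzymes form the body's main routes for small alcohols and carbonyl compounds. Adh enzymes oxidize ethanol and retinol, Aldh enzymes turn the resulting aldehydes into acids, and Akr enzymes reduce aldehydes, ketones and steroids with NADPH. In the intestine they meet dietary alcohols, retinal from carotenoids, lipid peroxidation products and sugars. Several Aldh enzymes are instead steps of amino acid and folate metabolism. Many members sit in tandem clusters of closely related copies. Probe positions below are those of the files' annotation, on rat build rn4.

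There were 3 such clusters. The Adh cluster held 6 members within 222.2 kb of chromosome 2, in the order Adh7, Adh1, Adh6a, Adh6, Adh4, Adh5. The Akr1b cluster held 4 members within 152.3 kb of chromosome 4, in the order Akr1b1, Akr1b8, Akr1b10, Akr1b7. The Akr1c cluster held 10 members within 370.1 kb of chromosome 17, from Akr1c12l1 and Akr1e2 through Akr1c2, Akr1c1, Akr1c12, Akr1c19, Akr1c13, Akr1c18 and Akr1c14 to Akr1cl1. Gene names are those of the array files. In present RefSeq names (assembly GRCr8) the names Akr1c12 and Akr1c13 are exchanged, so that the array's Akr1c12 is now Akr1c13 and the array's Akr1c13 is now Akr1c12. Adh1 is now Adh1c, Akr1c18 is now Akr1c3 and Akr1cl1 is now Akr1c15.

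The sequences of 5 probes are shown because they read large differences between groups, or opposite ones in close relatives. Those of Akr1b8, Akr1b10 and Akr1c13 cross from one exon to the next, so that their 60 bases cover 669, 1227 and 1348 bases of genome. They lie at chr4:61724364-61725032 (plus strand), chr4:61761665-61762891 (plus), chr17:76971296-76971355 (plus, Akr1c12l1), chr17:77215345-77216692 (minus, Akr1c13) and chr1:16766234-16766293 (plus, Aldh8a1). No bases are in capitals.
Akr1b8: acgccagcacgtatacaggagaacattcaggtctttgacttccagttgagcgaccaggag
Akr1b10: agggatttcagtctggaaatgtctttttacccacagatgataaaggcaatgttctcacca
Akr1c12l1: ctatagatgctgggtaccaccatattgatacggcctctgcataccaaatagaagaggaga
Akr1c13: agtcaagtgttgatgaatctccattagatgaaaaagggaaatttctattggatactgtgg
Aldh8a1: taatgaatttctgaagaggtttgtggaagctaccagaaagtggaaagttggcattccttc
Despite the relatedness of the genes, their probes were unlike each other in sequence. Probes were compared only among themselves, so whether a probe also binds the transcript of a related member was not tested. Over all 903 pairs of member probes, the best local alignment scored 20 of a possible 60 (1 for a match, -1 for a mismatch), for Akr1d1 and Akr1b8.

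Upstream sequences of 2 pairs of neighbors are shown for their near-identical letters. Akr1c12 and Akr1c13 had unlike patterns over the groups. Adh6 was not read above background on any array, so its pattern could not be compared with that of Adh4. For each gene the 250 bases before the RefSeq start (GRCr8) are printed 5′ to 3′, and capitals mark letters that differ from or have no partner in the other gene of the pair. The first pair was 84.8% identical over the alignment (223 of 263 columns), from chr17:70894386-70894635 on the plus strand (Akr1c12) and chr17:70971413-70971662 on the minus strand (Akr1c13).
Akr1c12: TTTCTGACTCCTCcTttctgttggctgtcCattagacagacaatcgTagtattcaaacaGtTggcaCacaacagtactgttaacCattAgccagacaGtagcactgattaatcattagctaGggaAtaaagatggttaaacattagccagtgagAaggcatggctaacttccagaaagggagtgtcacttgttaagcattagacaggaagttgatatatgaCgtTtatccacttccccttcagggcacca
Akr1c13: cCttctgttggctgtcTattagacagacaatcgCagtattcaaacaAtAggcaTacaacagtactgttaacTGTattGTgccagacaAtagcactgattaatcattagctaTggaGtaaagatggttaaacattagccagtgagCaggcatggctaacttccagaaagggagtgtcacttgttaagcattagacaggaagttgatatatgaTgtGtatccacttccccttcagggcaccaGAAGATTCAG
The second pair was 88.9% identical (232 of 261 columns), from chr2:229621842-229622091 (Adh4) and chr2:229576386-229576635 (Adh6), both on the plus strand.
Adh4: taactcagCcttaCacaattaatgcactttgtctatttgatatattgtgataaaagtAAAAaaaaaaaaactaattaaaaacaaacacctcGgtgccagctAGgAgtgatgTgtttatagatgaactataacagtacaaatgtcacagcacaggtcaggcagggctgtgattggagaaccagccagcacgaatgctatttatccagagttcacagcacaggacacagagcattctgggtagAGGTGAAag
Adh6: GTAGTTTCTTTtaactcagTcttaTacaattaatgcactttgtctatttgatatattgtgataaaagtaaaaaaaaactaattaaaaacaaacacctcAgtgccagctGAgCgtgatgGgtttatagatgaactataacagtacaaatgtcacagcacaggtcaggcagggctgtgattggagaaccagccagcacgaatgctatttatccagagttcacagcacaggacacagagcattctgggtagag
Akr1c12l1 was 78.2% identical to Akr1c12 and 80.8% to Akr1c13 over the same window. Other neighbors were far less alike, with 45.7% for Akr1c12 and Akr1c19 and 48.5% for Akr1b8 and Akr1b10, close to the 46.7% of Akr1b8 and Akr1c12 from different chromosomes. RefSeq promoters (250 bases before to 50 after the start) were held for 35 of the 43 members. The core of the antioxidant response element, TGACNNNGC on either strand, lay in 4 of these 35 (11.4%; Akr1cl1, Aldh16a1, Aldh1a2 and Aldh9a1), against 12.2% of all 27457 promoters. TATAAA, on either strand, lay in 5 (14.3%; Adh4, Adh6, Akr1c18, Akr1c19 and Aldh4a1), against 14.3% of all. Member promoters thus held both motifs at about the share of promoters at large.

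Intensities given below are in arbitrary units after quantile normalization. A gene entered the test when all 5 arrays of some group read its probe well above background, which held for 36 of the 43 members. Of these, 30 were above background on all 15 arrays. The remaining 7 were not tested. Adh6, Akr1c1 and Akr1d1 were above background on no array. Akr1b7 was above it on 2 arrays of each group, Akr1c18 on 1 sham and 1 bypass array, and Akr1c2 on 2 bypass arrays. Adh7 was above it on no Wistar, 1 sham and 4 bypass arrays, and is described with its class.

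The tissue could be checked through cell type markers. Of 12 markers of absorptive epithelium, 11 were tested, and their summed intensity ranged from 552000 to 721000 in Wistar, 540000 to 672000 in sham and 602000 to 663000 in bypass rats, with a median log2 difference of -0.03 between bypass and sham rats. The sucrase marker Sis was not above background or not on the array. The summed smooth muscle markers ranged from 60000 to 92800, from 47800 to 108000 and from 165000 to 212000 in the same order. Of the 8 tested smooth muscle markers, 5 were higher in bypass than in sham rats, with a median log2 difference of 1.33. Acta2 and Synpo2 were not tested. Leukocyte markers summed to 53200 to 69600, 46000 to 60800 and 33800 to 49600, and 4 of 6 tested were lower in bypass than in Wistar rats. Of the gastric markers, 4 of 9 were tested, while Gkn1, Gkn2, Muc5ac, Gif and Atp4a were not above background in any whole group or not on the array. In whole tissue, fewer cells of a type and less RNA per cell cannot be told apart. The part of these shifts in the results below was not tested.

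**Figure D1:**
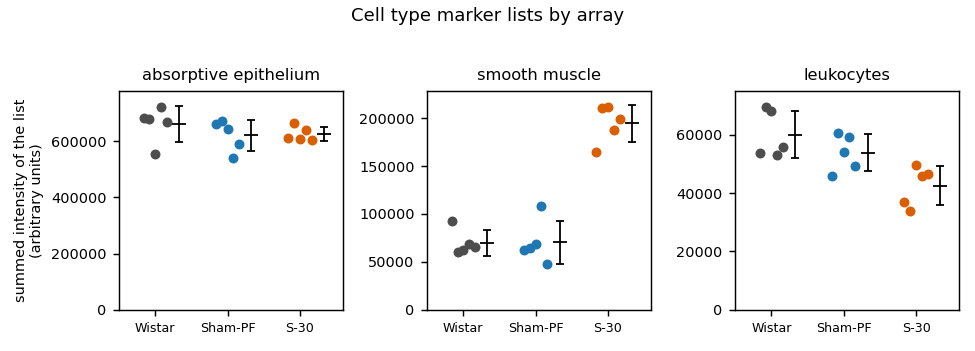
Summed intensity (arbitrary units) of the absorptive epithelium, smooth muscle and leukocyte marker lists on each array (points), with group mean and SD (bars), for 5 Wistar, 5 sham (GK-Sham-PF) and 5 bypass (GK-S-30) rats. Epithelial sums overlapped between the groups, and all 5 bypass arrays lay above all others for smooth muscle.

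The arrays were on 4 slides: A with 4 Wistar rats, B with 1 Wistar and 3 sham rats, C with 2 sham and 2 bypass rats, and D with 3 bypass rats. Slide and group are therefore largely shared, and bypass and Wistar rats had no slide in common. The 75th percentile of the signal ranged from 206.6 to 357.2, and 2 arrays were dimmer than the rest, Wistar 3 at 206.6 and sham 5 at 208.4.

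Between sham and Wistar rats, 5 of the 36 tested members were higher and 7 lower (limma, Benjamini-Hochberg adjusted p under 0.05 over all 13023 tested genes). This is 33.3% of the members, beside 8.83% of all tested genes (4.2% higher and 4.63% lower). The arrays of the 2 groups did not overlap for 12 members, beside 9.69% of all genes. The higher ones were Adh4, Adh6a, Akr1b10, Akr1c12 and Akr1c19, and the lower ones Akr1b8, Akr1c13, Akr1c12l1, Akr1e2, Akr7a3, Aldh1l1 and Aldh8a1. The median log2 difference of the tested members was -0.23, against 0.01 over all tested genes.

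Between bypass and sham rats, 3 members were higher (Adh6a, Aldh4a1 and Aldh7a1) and 5 lower (Aldh8a1, Aldh18a1, Akr7a2, Akr1c19 and Aldh3a2). This is 22.2%, beside 9.65% of all tested genes (5.16% higher and 4.49% lower). The arrays of both groups did not overlap for 5 members, beside 9% of all genes. The median log2 difference was -0.10 for the members and -0.03 for all genes.

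Between bypass and Wistar rats, 7 members were higher and 15 lower, 61.1% beside 26.2% of all tested genes (12.4% higher and 13.8% lower), and 16 did not overlap, beside 19.5% of all genes. The median log2 difference was -0.20, against -0.02. This comparison shares its Wistar arrays with the first and its bypass arrays with the second, so its calls are not independent of theirs.

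With slide as a fixed block in the model, 5 of the 12 calls between sham and Wistar rats, 0 of the 8 between bypass and sham and 4 of the 22 between bypass and Wistar rats still passed. At an unadjusted limma p-value under 0.05 in that blocked fit, 11 members passed between sham and Wistar rats (9.37% of all tested genes), 9 between bypass and sham rats (17.2% of all) and 10 between bypass and Wistar rats (15.1% of all). All 12 called differences had the same sign on slide B alone, and all 8 called ones had it on slide C alone. These arrays also made the calls, and slide B held 1 Wistar rat, so the signs are no separate support. For members whose groups did not overlap, the sign on a single slide was fixed in advance. At the adjusted threshold this fit called, of all tested genes, 1.37%, 2.19% and 1.82% in the same order of comparisons.

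**Figure D2:**
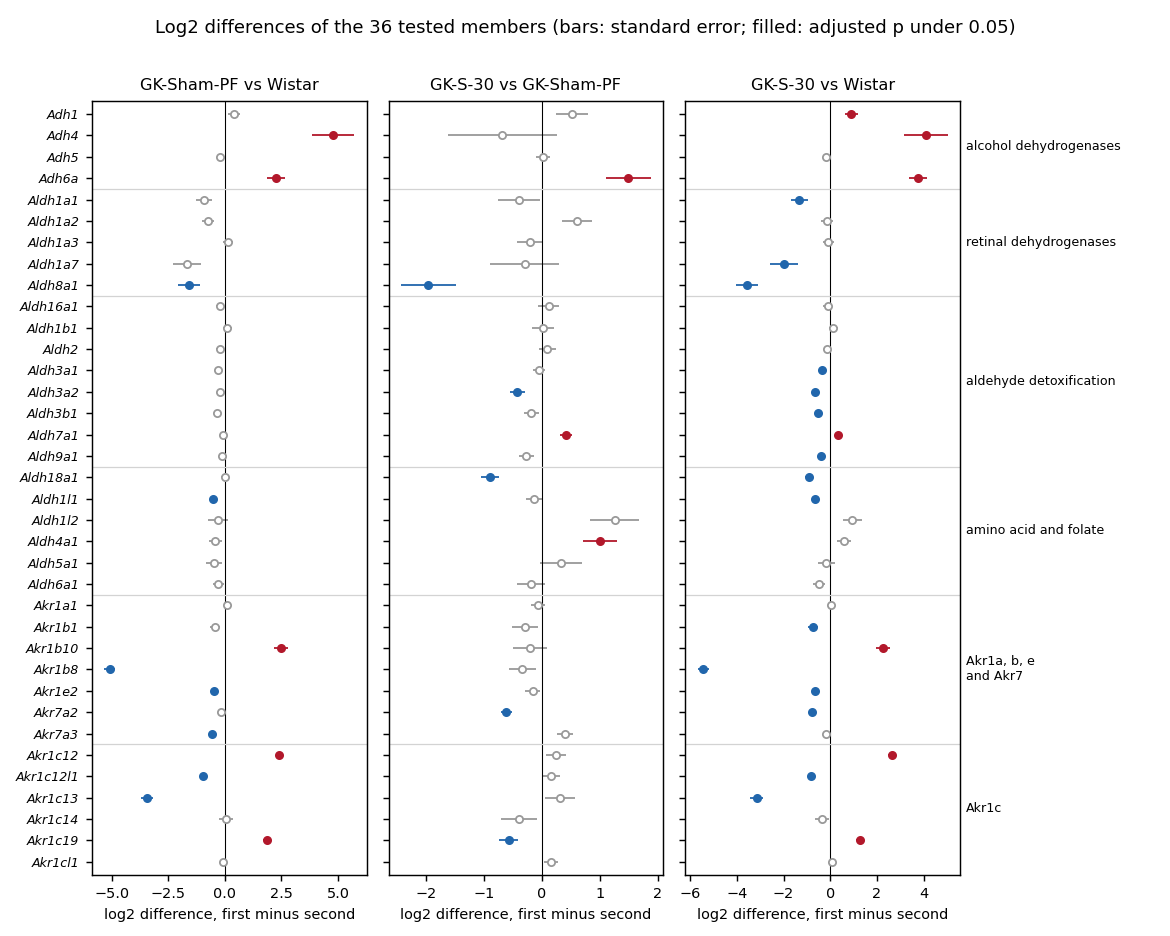
Log2 difference (first group minus second, with its standard error) of each of the 36 tested members in the 3 comparisons, ordered by enzyme class. Filled points passed an adjusted p of 0.05 (red higher, blue lower); Akr1b8 has the widest difference in both comparisons with Wistar rats.

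Akr1b8 showed the largest difference of all members. It encodes an NADPH-dependent reductase of aldehydes and retinal in the aldose reductase branch. Its intensity was 32760, 23210, 16160, 35200 and 27100 in the 5 Wistar rats, in the order of the animals. In sham rats it was 736.4, 1018, 799.7, 737.8 and 562.4, and in bypass rats 414.9, 538.8, 571.8, 641.3 and 925.3. Every GK rat, operated or not, lay far below every Wistar rat. The level was 34.25-fold lower in sham than in Wistar rats (log2 difference -5.10 ± 0.23, standard error; limma adjusted p = 9.06e-10) and 43.43-fold lower in bypass rats (-5.44 ± 0.23, adjusted p = 2.99e-10). With slide as a block the adjusted p was 2.16e-05 and 0.00018, and on slide B the difference was -5.28. Between bypass and sham rats it was -0.34 ± 0.23 (adjusted p = 0.406), with overlapping arrays.

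Its neighbor Akr1b10, a retinal and aldehyde reductase, went the other way on its probe, at a level near background. Intensities were 7.436, 2.639, 2.097, 2.131 and 2.153 in Wistar rats, where only the first was well above background. They were 14.54, 15.79, 16.28, 13.95 and 19.16 in sham and 11.17, 10.46, 14.31, 19.19 and 15.52 in bypass rats, where 5 and 4 arrays were above it. The gene entered the test through the sham arrays. The Wistar arrays read below all GK arrays, and the fit gave log2 differences of 2.47 ± 0.29 for sham (adjusted p = 4.16e-05) and 2.27 ± 0.29 for bypass rats (adjusted p = 5.15e-05), both against a mostly unmeasured level. Each Wistar array that was not above background was then set to the higher of its own level and a floor. The floor was the lowest level of any probe above background on that array. The gene then came out 1.57-fold higher in sham and 1.37-fold higher in bypass rats. Because the lowest such level was taken, the true folds may be smaller. The same floor, chosen after the values were seen, is used for Adh4, Adh6a and Aldh1a7. With normexp background correction the differences were 0.25 and 0.22 (adjusted p = 0.0066 and 0.00639), and on slide B, where the Wistar rat was the one above background, the first was 1.06. A probe that the files describe as Akr1b10 but name by no gene symbol, in the same cluster, was above background on all 15 arrays. It read 6.99 ± 0.18, 7.01 ± 0.17 and 6.87 ± 0.37 on the log2 scale (SD, n = 5 each) in Wistar, sham and bypass rats. The named Akr1b10 probe thus separated Wistar from GK rats, while the group means of the unnamed probe lay within its spread. The unnamed probe was chosen after its annotation was seen and was not tested.

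Akr1b1 is aldose reductase, the first enzyme of the polyol pathway. Its intensity was 212.1, 186.4, 130.8, 181.6 and 183.2 in Wistar, 159.4, 157, 141.4, 144.7 and 69.46 in sham and 97.62, 82.53, 136.1, 123.1 and 95.74 in bypass rats. It was lower in bypass than in Wistar rats (-0.75 ± 0.22, adjusted p = 0.0191), with the third Wistar rat inside the bypass range. In the other comparisons adjusted p was 0.248 and 0.458. With slide as a block the call of Akr1b1 did not pass (adjusted p = 0.539). Akr1b7, a reductase of lipid aldehydes, varied from 2.546 to 60.14 over the 15 arrays and was above background on 2 arrays of each group.

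**Figure D3:**
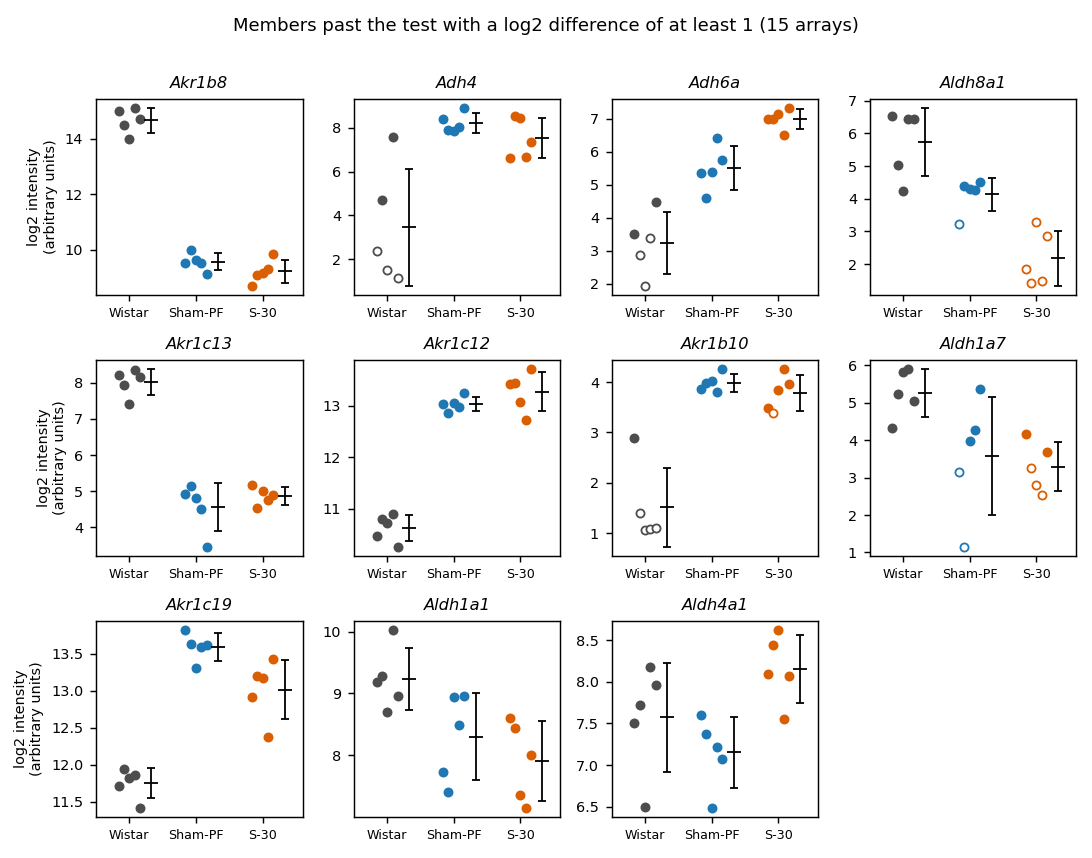
Log2 intensity (arbitrary units) on each array of the 11 members that passed the test with a log2 difference of at least 1 in size; points are rats, open points were not well above background, and bars are mean and SD of 5 rats. Wistar rats stand apart from both GK groups for Akr1b8, Akr1c13, Akr1c12 and Akr1c19, and the bypass rats read no Aldh8a1 above background.

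Members of the Akr1c cluster are hydroxysteroid dehydrogenases that also reduce other ketones and aldehydes, and they differed between GK and Wistar rats in opposite directions. Akr1c12 had intensities of 1417, 1778, 1691, 1891 and 1222 in Wistar rats. It had 8400, 7446, 8474, 7982 and 9759 in sham and 10960, 11140, 8576, 6765 and 13440 in bypass rats. The GK rats were all above the Wistar rats, 5.302-fold in sham (2.41 ± 0.17, adjusted p = 1.25e-07) and 6.267-fold in bypass rats (2.65 ± 0.17, adjusted p = 3.09e-08). With slide as a block, adjusted p was 0.00123 and 0.00564.

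Akr1c13, whose upstream sequence above is nearly that of Akr1c12, ran the opposite way. Its intensities were 297, 247.1, 171.3, 330.7 and 285 in Wistar, 30.14, 35.03, 28.17, 22.57 and 10.96 in sham and 36.03, 23.11, 32.13, 27.1 and 29.7 in bypass rats. No GK rat reached the lowest Wistar rat. The level was 11-fold lower in sham (-3.46 ± 0.27, adjusted p = 3.12e-07) and 8.873-fold lower in bypass rats (-3.15 ± 0.27, adjusted p = 7.05e-07). It stayed past the test with slide as a block (adjusted p = 0.000899 and 0.045), and normexp correction gave smaller differences of -1.69 and -1.66.

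Akr1c19 lies between them in the cluster. It read 3339, 3925, 3616, 3717 and 2733 in Wistar and 14510, 12670, 10120, 12290 and 12520 in sham rats. Bypass rats were in between, at 7721, 9388, 9192, 5314 and 10990. It was 3.588-fold higher in sham than in Wistar rats (1.84 ± 0.17, adjusted p = 2.39e-06; with slide as a block 0.0157). Akr1c19 was 1.49-fold lower in bypass than in sham rats (-0.58 ± 0.17, adjusted p = 0.0438), where the arrays overlapped. That call was lost in 10 of the 15 fits that each left out 1 array, and with slide as a block (adjusted p = 0.382). Akr1c19 was 2.407-fold higher in bypass than in Wistar rats (adjusted p = 6.99e-05, and 0.179 with slide as a block).

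Akr1c12l1, the third gene of the similar upstream group, was at 437.1 in Wistar, 223.7 in sham and 249.3 in bypass rats (geometric means), 1.954-fold lower in sham than in Wistar rats (-0.97 ± 0.15, adjusted p = 0.000453; with slide as a block 0.0645). In bypass rats it was 1.754-fold lower than in Wistar rats (adjusted p = 0.000944, and 0.308 with slide as a block). Akr1c14, the rat 3α-hydroxysteroid dehydrogenase, passed in no comparison, with log2 differences from -0.40 to 0.03. Its arrays ranged from 1406 to 4173. Akr1cl1 passed in none either, with differences from -0.10 to 0.15. Akr1c2 was above background on 2 bypass arrays, at 16.74 and 16.22, and on none of the others. Akr1c18, which inactivates progesterone, was above it on 1 sham array, at 12.34, and 1 bypass array, at 28.2.

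Akr1e2, the 1,5-anhydro-D-fructose reductase, sits in the same cluster. It was 305.6 in Wistar, 216.8 in sham and 194.1 in bypass rats, lower in both GK groups than in Wistar rats (-0.50 ± 0.13, adjusted p = 0.0229; -0.66 ± 0.13, adjusted p = 0.00154). Neither call of Akr1e2 passed with slide as a block (adjusted p = 0.421 and 0.335). Of the 7 tested members of this cluster, 2 were thus higher and 3 lower in sham than in Wistar rats.

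**Figure D4:**
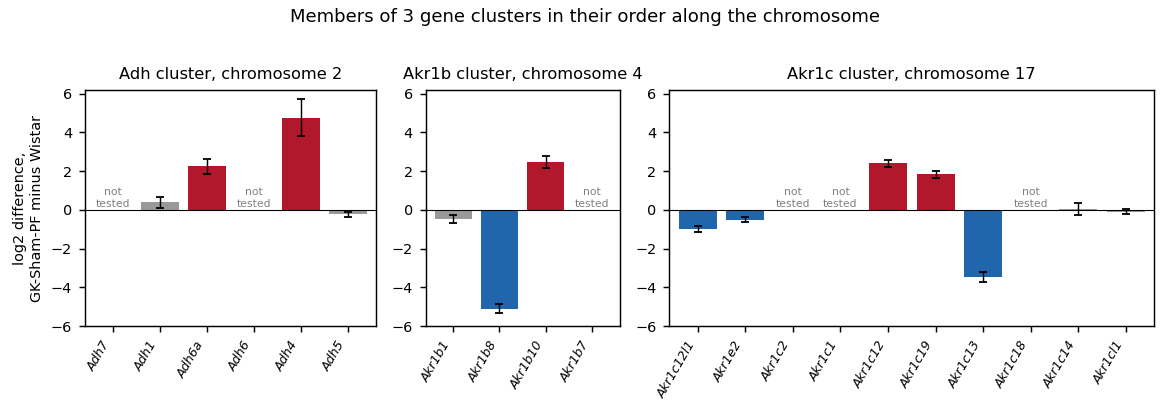
Log2 difference between sham and Wistar rats (bars, with standard errors) of the members of 3 clusters in their order along the chromosome; red and blue bars passed the test, grey ones did not. Higher and lower genes were direct neighbors in the Akr1b and Akr1c clusters. In the Akr1b cluster the higher one, Akr1b10, was read near background, with 1 Wistar array above it. An unnamed probe described as Akr1b10, not drawn here, had log2 means of 6.99 in Wistar and 7.01 in sham rats.

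Outside the clusters, 3 Akr genes were tested, and Akr1d1, a steroid reductase of bile acid synthesis, was not above background. Akr1a1, the general aldehyde reductase, was at 6457, 6560, 4204, 7327 and 5497 in Wistar rats and between 5698 and 7221 in the GK rats. Its log2 differences ranged from -0.07 to 0.11 (lowest adjusted p = 0.686). Akr7a2, a reductase of succinic semialdehyde, was at 7100, 6571, 7384, 6426 and 7247 in sham rats. It was at 3916, 5075, 4594, 4820 and 4359 in bypass rats, every one below every sham rat. The difference, 1.529-fold (-0.61 ± 0.09), had the lowest adjusted p of any member in this comparison, 0.000635, with 0.0658 when slide was a block and -0.61 on slide C. In Wistar rats Akr7a2 ranged from 6828 to 8446, also above all bypass rats. Akr7a3, the aflatoxin B1 aldehyde reductase, was 1.504-fold lower in sham than in Wistar rats (29980 against 45090; -0.59 ± 0.13, adjusted p = 0.00978). That call did not pass with slide as a block (adjusted p = 0.455). Akr7a3 was at 39430 in bypass rats, 0.40 ± 0.13 above sham rats (adjusted p = 0.0745).

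Among the alcohol dehydrogenases, Adh4 and Adh6a were higher in both GK groups than in Wistar rats. Adh4 is the class II enzyme, which takes up ethanol at high concentration and also oxidizes retinol. Its intensities in Wistar rats were 5.194, 25.91, 2.85, 189.6 and 2.195, of which only the second and the fourth were well above background. In sham rats they were 338.8, 240, 228.8, 266.8 and 483.2, and in bypass rats 99.95, 378.9, 354.2, 102.9 and 162.2. The highest Wistar rat thus lay inside the bypass range and below the sham range, with a log2 SD of 2.68 (n = 5), against 0.44 and 0.93 in the GK groups. The gene entered the test through the GK arrays. With the 3 unmeasured Wistar arrays at their floor it came out 14.1-fold higher in sham and 8.77-fold higher in bypass rats. The fitted log2 differences were 4.77 ± 0.94 (adjusted p = 0.00386) and 4.08 ± 0.94 (adjusted p = 0.00497). In the fit with slide as a block adjusted p was 0.252 and 0.389, and with normexp correction the differences were 1.78 and 1.29. Adh6, whose upstream sequence above is nearly that of Adh4, was above background on none of the 15 arrays.

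Adh6a, a class V gene, was the sole tested Adh gene that passed in each comparison. Its intensities were 11.46, 7.362, 3.824, 10.47 and 22.12 in Wistar rats, where only the first and the fifth were above background. They were 40.89, 24.07, 42.1, 85.04 and 54.17 in sham rats and 127.3, 126.1, 141.9, 90.48 and 160.3 in bypass rats. The 3 groups did not overlap, and the gene entered the test through the GK arrays. The fitted log2 difference between sham and Wistar rats was 2.26 ± 0.39 (adjusted p = 0.00131). With the 3 unmeasured Wistar arrays at their floor, the level came out 3.58-fold higher in sham rats. Between GK groups, where all arrays measured it, it was 2.803-fold higher in bypass than in sham rats (1.49 ± 0.39, adjusted p = 0.026). With normexp correction the differences were 0.59 and 0.67, and on slides B and C they were 1.59 and 0.90. Adjusted p was 0.5 and 0.488 with slide as a block. The call between bypass and sham rats was lost in 5 of the 15 fits that each left out 1 array. Both Adh4 and Adh6a are known from liver, whose 5 markers summed to 139 to 233 in Wistar, 164 to 365 in sham and 184 to 622 in bypass rats, and whose part was not tested.

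Adh7, the class IV retinol and ethanol dehydrogenase best known from the stomach, had no group wholly above background. It read 3.237, 2.071, 5.24, 2.07 and 2.061 in Wistar, 7.628, 6.505, 5.593, 11.54 and 8.37 in sham and 12.11, 29.58, 49, 10.69 and 22.78 in bypass rats. Only the fourth sham array and all bypass arrays but the fourth were above background. The gene did not enter the test. In the alternative fit without a filter it passed between sham and Wistar rats (adjusted p = 0.0388), bypass and sham rats (0.0433) and bypass and Wistar rats (0.000145). Those fits rest on mostly unmeasured Wistar and sham levels, so no fold is given. The summed gastric markers were at 1920 to 3760 in Wistar, 1270 to 2490 in sham and 1360 to 2060 in bypass rats. The part of gastric tissue was not tested.

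Adh1, the classical class I ethanol dehydrogenase, was at 260.2, 155.6, 214.5, 340.1 and 371.6 in Wistar rats. It was at 573.5, 260.7, 273.1, 437.6 and 235.8 in sham and 369.6, 594.6, 439.3, 432.1 and 599.2 in bypass rats. The groups overlapped, and it passed between bypass and Wistar rats (0.90 ± 0.27, adjusted p = 0.0234) but not in the other comparisons (0.478 and 0.27). With slide as a block the call of Adh1 did not pass (adjusted p = 0.572). Adh5, the class III enzyme that disposes of formaldehyde and S-nitrosoglutathione, ranged from 159.2 to 271.1 over all arrays and passed in no comparison (lowest adjusted p = 0.249).

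Of the 5 genes classed here as retinal dehydrogenases, 3 were lower in bypass than in Wistar rats, beside 13.8% of all tested genes. Aldh1a7 and Aldh8a1 entered the test only through the Wistar arrays, where they were high, which favors a call in this direction. The class is named for making retinoic acid, an activity that was not measured. Among the 3, only Aldh8a1 also passed with slide as a block. Aldh1a1 was at 581.8, 625.9, 413.9, 1046 and 497.7 in Wistar and 212.9, 168.8, 493.9, 357.6 and 496.3 in sham rats. In bypass rats it was at 389, 348.6, 163.5, 141.9 and 256.1, all below the lowest Wistar rat (-1.32 ± 0.36, 2.499-fold, adjusted p = 0.0135; with slide as a block 0.433). Against sham rats the difference was -0.39 ± 0.36 (adjusted p = 0.563). Aldh1a7, a rodent relative of Aldh1a1, was at 19.93, 37.52, 56.71, 59.08 and 32.93 in Wistar rats. It was at 8.916, 2.218, 15.71, 19.45 and 41.11 in sham and 17.9, 9.511, 6.913, 5.829 and 12.82 in bypass rats, with 3 and 2 arrays above background. It was lower in bypass than in Wistar rats, 2.93-fold with the unmeasured arrays at their floor. The fitted log2 difference was -1.97 ± 0.60 (adjusted p = 0.0239), and -0.48 with normexp correction. With slide as a block adjusted p was 0.286. Aldh1a2 and Aldh1a3 passed in no comparison, with differences from -0.73 to 0.61 and from -0.20 to 0.13.

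Aldh8a1 was first described as a retinal dehydrogenase and is also known for a step of tryptophan breakdown. It fell from Wistar through sham to bypass rats. Its intensities were 91.86, 32.4, 18.84, 87.47 and 86.25 in Wistar rats, all above background. They were 9.422, 20.88, 19.61, 19.18 and 22.69 in sham rats, with all but the first above background, and 3.627, 2.678, 9.767, 2.781 and 7.258 in bypass rats, none of which was. The fitted log2 differences, from unmeasured bypass levels, were -1.96 ± 0.47 from sham rats (adjusted p = 0.0179) and -3.55 ± 0.47 from Wistar rats (adjusted p = 6.89e-05). With the bypass arrays at a floor, the gene came out 1.54-fold lower than in sham and 4.66-fold lower than in Wistar rats. On each bypass array, the floor was the higher of the probe's own signal and the lowest signal well above background. Neither fold is a strict limit. On 1 bypass array Aldh1a2 was not above background at 17.46, beside a geometric mean of 17.58 for Aldh8a1 in sham rats. With normexp correction the difference from sham rats was -0.21 (adjusted p = 0.366). Sham rats differed from Wistar rats by -1.60 ± 0.47 (adjusted p = 0.0482), with the third Wistar rat inside the sham range and the call lost in 11 of the 15 fits that each left out 1 array. The call between bypass and Wistar rats held with slide as a block (adjusted p = 0.0348).

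The other genes of retinoid handling were counted from a list, of which 25 of 35 were tested. Between bypass and sham rats 2 were higher and 4 lower, beside 5.16% and 4.49% of all tested genes. The list median was -0.17, against -0.03 over all genes. Lower were Rdh16, a retinol dehydrogenase (-1.18 ± 0.22, adjusted p = 0.00399), Retsat, which saturates retinol (-1.18 ± 0.20, adjusted p = 0.00191), the retinoic acid binding protein Crabp2 (-0.65, adjusted p = 0.0287) and Rdh5 (-0.47, adjusted p = 0.0193). Higher were Rdh10 (0.42 ± 0.09, adjusted p = 0.0112), which makes retinal in development, and Bco2, a carotenoid-cleaving enzyme (0.43, adjusted p = 0.0182). Rdh16 also passed with slide as a block (adjusted p = 0.0267), while Crabp2 (0.0507), Rdh10 (0.132), Retsat (0.176), Rdh5 (0.357) and Bco2 (0.4) did not. Between sham and Wistar rats Crabp1 and Rdh16 (1.58 ± 0.22) were higher and Lrat and Rdh7 lower, beside 4.2% and 4.63% of all tested genes. Rdh7, another retinol dehydrogenase, differed most (-2.24 ± 0.31, adjusted p = 0.00017). Rdh16 (adjusted p = 0.0932), Rdh7 (0.127), Crabp1 (0.625) and Lrat (0.913) did not pass with slide as a block. Both comparisons share the sham arrays. Between bypass and Wistar rats 2 of the list were higher and 7 lower, beside 12.4% and 13.8% of all tested genes. Rdh7 differed by -3.10 ± 0.31 (adjusted p = 3.96e-06, and 0.0995 with slide as a block).

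Of the 8 detoxifying aldehyde dehydrogenases, 0 passed between sham and Wistar rats with limma, beside 8.83% of all tested genes. Aldh3a1 and Aldh3b1, 2 of the 8, were lower at an unadjusted p under 0.05, by limma and by Tukey's comparison of the study's methods. Tukey's p was under 0.05, in either direction, for 14.7% of all tested genes in this comparison. The arrays of Aldh3b1 did not overlap. Aldh2, the mitochondrial acetaldehyde dehydrogenase, was at 18930, 18330, 11520, 20800 and 16750 in Wistar rats. It ranged from 11060 to 16770 in sham and from 14420 to 16120 in bypass rats and passed in no comparison (lowest adjusted p = 0.409). Aldh1b1 and Aldh16a1 passed in none, with differences from 0.02 to 0.12 and from -0.23 to 0.12.

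Between bypass and sham rats, 1 of these 8 was higher and 1 lower, beside 5.16% and 4.49% of all tested genes. Aldh3a2, which oxidizes long-chain fatty aldehydes, was at 19990, 24220, 22780, 22740 and 20980 in sham and 13490, 14820, 22700, 14940 and 17850 in bypass rats. It was 1.342-fold lower after RYGB (-0.42 ± 0.13, adjusted p = 0.0443), with the third bypass rat inside the sham range and the call lost in 13 of the 15 fits that each left out 1 array. Aldh7a1, an enzyme of lysine breakdown, was at 2167, 2051, 2132, 2343 and 2282 in sham and 3093, 2881, 2857, 2538 and 3354 in bypass rats, with no overlap and a 1.338-fold rise (0.42 ± 0.10, adjusted p = 0.0195). A second, dimmer Aldh7a1 probe differed by 0.62 in the same direction, but the call was lost with the mean of all tested probes of the gene. It was also lost with Tukey's p after Benjamini-Hochberg adjustment and with rats blocked by replicate number. Neither Aldh3a2 (adjusted p = 0.11) nor Aldh7a1 (0.318) passed between bypass and sham rats with slide as a block. Against Wistar rats, Aldh3a1, Aldh3a2, Aldh3b1 and Aldh9a1, the last a step of carnitine synthesis, were lower in bypass rats by 1.26 to 1.578-fold, and Aldh7a1 was 1.271-fold higher. None of these calls passed with slide as a block (adjusted p = 0.535, 0.199, 0.675, 0.757 and 0.677 in the same order). Of the 15 fits that each left out 1 array, Aldh3a1 kept its call in 9, Aldh9a1 in 10 and Aldh7a1 in 13. Aldh3a2 and Aldh3b1 kept theirs in all 15. The Aldh7a1 call was lost with the mean of all its tested probes.

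Of the 6 Aldh genes of amino acid and folate metabolism, Aldh18a1 and Aldh4a1 moved in opposite directions between bypass and sham rats. Aldh18a1 makes pyrroline-5-carboxylate from glutamate, the entry to proline and ornithine synthesis. It was at 4626, 6269, 3895, 4728 and 5135 in Wistar and 5550, 5430, 5627, 4337 and 3546 in sham rats. All 5 bypass rats were below them, at 2591, 2204, 2189, 3397 and 2752 (1.861-fold, -0.90 ± 0.16, adjusted p = 0.00331, against sham). Aldh4a1 oxidizes pyrroline-5-carboxylate to glutamate in proline breakdown. It was at 181.5, 211.4, 90.35, 290.3 and 249.1 in Wistar, 194.9, 166.2, 89.59, 149 and 134.2 in sham and 272.9, 348.1, 395.3, 188.4 and 268.4 in bypass rats. It was 2.009-fold higher in bypass than in sham rats (1.01 ± 0.29, adjusted p = 0.0417), although the fourth bypass rat lay below the first sham rat and the call was lost in 10 of 15 fits that each left out 1 array. With slide as a block adjusted p was 0.138 for Aldh18a1 and 0.288 for Aldh4a1.

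Of the partner genes of these pathways, 16 of 19 were tested. Between bypass and sham rats 1 was higher and 4 lower, beside 5.16% and 4.49% of all tested genes. The list median was -0.01, against -0.03 over all genes. The lower ones included Oat, which links ornithine and pyrroline-5-carboxylate (-0.86 ± 0.12, adjusted p = 0.000497), and Pycr3, which makes proline from it (-0.44 ± 0.07, adjusted p = 0.00209). Hibch of valine breakdown was also lower (-1.01 ± 0.17, adjusted p = 0.00164), as was Hadha of fatty acid oxidation (-0.53 ± 0.11, adjusted p = 0.0085). Ftcd, of histidine and folate metabolism, was higher (0.93 ± 0.22, adjusted p = 0.0146). Oat (adjusted p = 0.0215) and Ftcd (0.0369) also passed with slide as a block, while Hibch (0.103), Hadha (0.13) and Pycr3 (0.166) did not. Prodh, the first step of proline breakdown, did not pass between these groups (0.42 ± 0.16, adjusted p = 0.117). Between bypass and Wistar rats 3 of the list were higher and 4 lower, beside 12.4% and 13.8% of all tested genes.

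Aldh1l1, the cytosolic 10-formyltetrahydrofolate dehydrogenase, was at 2752 to 3535 in Wistar, 1678 to 2534 in sham and 1598 to 2448 in bypass rats. Both groups of GK rats lay below all Wistar rats (-0.53 ± 0.14, adjusted p = 0.0254, and -0.66 ± 0.14, adjusted p = 0.00259). Neither difference of Aldh1l1 passed with slide as a block (adjusted p = 0.738 and 0.57). Its mitochondrial counterpart Aldh1l2 was at 85.61, 69.57, 68.68, 27.85 and 104.9 in sham and 204.4, 107.8, 166.2, 169.8 and 148.6 in bypass rats. These arrays did not overlap, but the difference missed the threshold (1.25 ± 0.43, adjusted p = 0.0789), and a second Aldh1l2 probe differed by 0.31. Aldh5a1, of GABA breakdown, and Aldh6a1, of valine breakdown, passed in no comparison, with differences from -0.49 to 0.32 and from -0.49 to -0.19.

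**Figure D5:**
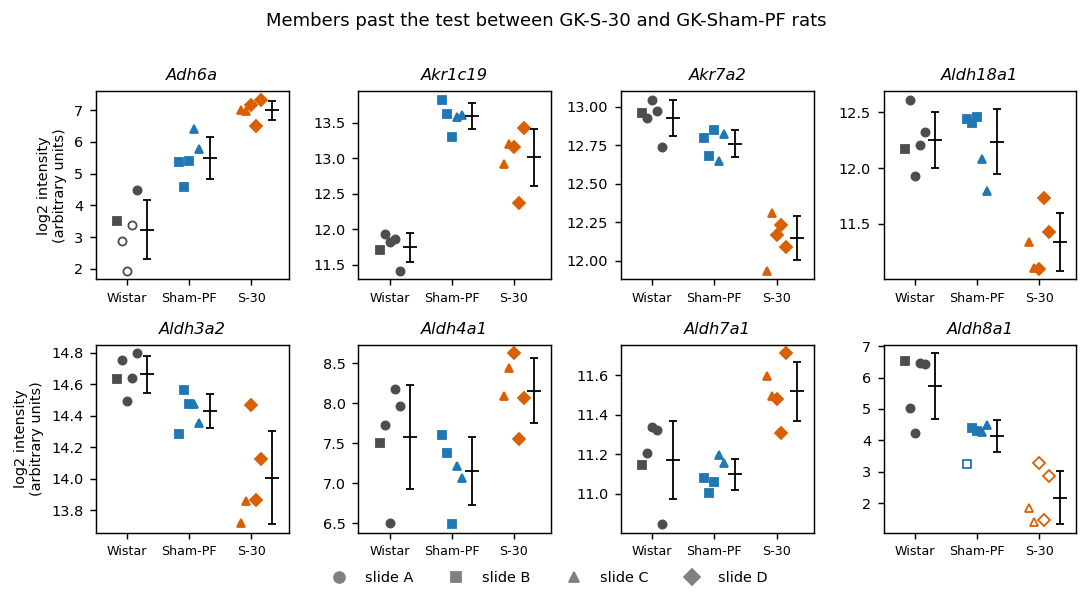
Log2 intensity (arbitrary units) on each array of the 8 members that passed the test between bypass and sham rats; the marker shape gives the slide, open points were not well above background, and bars are mean and SD of 5 rats. Akr7a2, Aldh18a1, Aldh7a1 and Adh6a did not overlap between these groups.

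The carbonyl reductases and polyol genes outside the members were counted from another list, with 16 of 18 tested. Between bypass and sham rats 1 was higher and 1 lower, beside 5.16% and 4.49% of all tested genes (median -0.07 against -0.03). Sord, sorbitol dehydrogenase, the polyol step after Akr1b1, rose by 2.39 ± 0.28 (adjusted p = 0.000148; with slide as a block 0.0203). Khk, which phosphorylates the fructose made from sorbitol, fell by 0.95 on the log2 scale (adjusted p = 0.00574; with slide as a block 0.0422). Between sham and Wistar rats 4 were lower, Glyctk (-0.81), Dcxr (-0.64), Ptgr1 (-0.60) and Glo1 (-0.27), beside 4.63% of all tested genes. The list median was -0.10, against 0.01. With slide as a block Dcxr (adjusted p = 0.136), Glyctk (0.301), Glo1 (0.605) and Ptgr1 (0.615) did not pass. Between bypass and Wistar rats 3 were higher and 6 lower, beside 12.4% and 13.8% of all tested genes.

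Targets of the redox factor NRF2, which include several Akr genes in other settings, were a further list of 13, with 11 tested. Between bypass and sham rats 3 were higher, beside 5.16% of all tested genes (median 0.33 against -0.03). Gpx2, an epithelial glutathione peroxidase, rose by 3.03 ± 0.24 (adjusted p = 5.69e-06), Gclc by 1.14 ± 0.29 (0.0243) and Me1 by 0.70 ± 0.15 (0.00948). Gpx2 (adjusted p = 0.00458) and Me1 (0.0344) also passed with slide as a block, and Gclc (0.113) did not. Between sham and Wistar rats Gpx2 was higher and Me1 and Ephx1 lower, beside 4.2% and 4.63% of all tested genes. The list median was -0.33, against 0.01. With slide as a block Gpx2 (adjusted p = 0.442), Me1 (0.537) and Ephx1 (0.328) did not pass. Between bypass and Wistar rats 3 were higher and 1 lower, beside 12.4% and 13.8% of all tested genes, with a median of 0.14 against -0.02.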

How the data were processed

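Total RNA was labeled with Cy3 and hybridized to 1-color arrays, 1 per rat. Per the labels and file headers, the authors extracted the intensities with Agilent Feature Extraction 10.7. The deposited files hold background-corrected signal intensity per spot, and the deposited series matrix holds the authors' log2 values, used here as an alternative. Spots of 1 probe (41012 probes) were averaged, and quantile normalization of the log2 intensities used R 4.3.3 with limma 3.58.1. Of the probes, 22502 carried a gene name (17540 updated through an accession, 3098 by symbol, 539 by synonym, 1325 kept as in the file) and 18510 did not. Quantile normalization forces the same distribution on every array, so differences are relative to all probes. Each gene was read by its brightest tested probe. All 15 arrays entered 1 limma fit (lmFit, eBayes), with Benjamini-Hochberg adjustment over 13023 genes at 0.05. Tukey's comparison, which the study's methods name, was an alternative, as were another scaling, normexp correction (offset 50), other filters, slide blocks and leaving out each array. The fit was tested on simulated data. Sequences were read with Python 3.11.15 and Biopython 1.88, and figures drawn with matplotlib 3.10.9.

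The precision is limited by 5 arrays per group. The share of probes well above background ranged from 66.72% to 74.77%, and 0 non-control spots were saturated. The groups came from the sample labels, and each sample is 1 rat. Members, marker lists and gene lists were chosen with earlier results of these data known. Members past the threshold are named with values, those with a log2 difference of at least 1 array by array, the others by class with their range, and Adh1, Adh5, Aldh2, Aldh1a1, Akr1a1 and Akr1b1 in any case. Whether GK and Wistar rats differ in sequence under a probe was not tested.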

Additional observations from a re-analysis of the deposited data

Results flagged for a closer look

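Of 108 groups of 5 arrays searched (36 members in 3 groups), 7 had an array that stood apart from the other 4 by Dixon's ratio, the gap to the nearest array over the whole range, with a limit of 0.71. Chance flags about 5% of groups. Akr1a1 was high in sham rat 3 (ratio 0.767, log2 level 12.818 against 12.627 for the nearest). Akr1b1 was low in sham rat 5 (0.856, 6.118 against 7.144), whose array was one of the 2 dimmer ones. Akr1b10 was high in Wistar rat 1 (0.819, 2.895 against 1.4), the sole Wistar array on slide B and the sole one above background for this gene. Akr1c14 was high in bypass rat 3 (0.787, 12.027 against 10.791). Aldh6a1 was low in Wistar rat 5 (0.728, 5.571 against 5.987) and high in sham rat 3 (0.831, 6.864 against 5.521). Aldh8a1 was low in sham rat 1 (0.809, 3.236 against 4.262), where it was not above background.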

How the results depend on the processing

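Of the 42 calls of members over the 3 comparisons, all kept their direction in every alternative that could be computed. The call was kept by 42 with the deposited series matrix, slide as a random block or Tukey's unadjusted p, by 41 with normexp correction, 40 with the mean of all probes of a gene, 39 with 75th percentile scaling, 38 without a filter and 38 with only the 10 arrays compared. It was kept by 31 of the 31 that stand above background on all 15 arrays, 26 with Tukey's p after Benjamini-Hochberg adjustment, 9 with slide as a fixed block, and 551 of 630 values when 1 array at a time was left out. Without both dimmer arrays, Wistar 3 and sham 5, a choice made after seeing the data, 40 kept it. The fit without a filter also called members that the main test left out. These were Adh7 in all 3 comparisons and Akr1c2 between bypass and sham rats (limma adjusted p = 0.0372).

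For bypass against sham rats, the 3 higher members became 0 with slide as a fixed block or with adjusted Tukey p. The 5 lower ones became 3 with 75th percentile scaling, without a filter or with only 10 arrays, 2 with adjusted Tukey p and 0 with the slide block. Leaving out 1 array gave 0 to 4 higher and 3 to 5 lower. It gave 0 higher without sham 2 or bypass 5 and 1 without sham 3 or bypass 3. It gave 3 lower without Wistar 1, 2 or 4, sham 1, 2, 4 or 5, or bypass 1 or 4. For sham against Wistar rats, the 5 higher members became 2 among genes above background on all arrays and 3 with the slide block, and stayed 5 to 5 when 1 array was left out. The 7 lower became 4 with adjusted Tukey p, 2 with the slide block and 4 to 7 when 1 array was left out, with 4 without Wistar 1 or Wistar 4. For bypass against Wistar rats, the 7 higher became 4 among genes above background on all arrays, 1 with the slide block and 5 to 8 when 1 array was left out, and the 15 lower became 3 and 12 to 16. With the slide block few arrays per slide and group remain to compare. The cause of the changes in any of these fits, the slide block included, was not tested.

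Over all 13023 genes, calls in the order bypass against sham, sham against Wistar and bypass against Wistar were 1257, 1150 and 3412, and with the slide block 285, 179 and 237. They were 2120, 1915 and 3784 with Tukey's p and 504, 708 and 2276 after adjustment.

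Replicate numbers did not pair the rats. Correlations of same-numbered deviations ran from -0.276 to 0.181, with 3 of 15 over 0.1, and 1 of 15 arrays correlated best with its own number. With the replicate block, the members called higher and lower were 1 and 3, 5 and 5, and 6 and 15 in the same order, and all genes called were 888, 854 and 2853.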

Other observations

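Several probes that the files place among these clusters carry no member's symbol, and they were chosen after their annotation was seen. One described as protein RAKb, near Akr1c12, was above background on all arrays at log2 levels of 5.85 ± 0.20, 5.99 ± 0.44 and 6.08 ± 0.37 (SD, n = 5) in Wistar, sham and bypass rats, on a probe of its own that was not compared with Akr1c12. A second RAKb probe farther away was above background on 0 of 15 arrays, with intensities from 2.526 to 3.713. A probe described as class VI alcohol dehydrogenase was above background on 1 Wistar array, at 14.65, and lay between 2.294 and 2.53 in all GK rats. One described as similar to alcohol dehydrogenase 1A was not above background on any array.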
